A study of Homo sapiens with 8 samples.

Results

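K562 is an established human line from a chronic myelogenous leukaemia that keeps features of early red cells and makes embryonic and fetal globins. Its transcript models were described here from its 2 direct RNA libraries, chosen by the line name in the labels, of 8 libraries and 3 lines in the study. No line was compared with another. A transcript model is a chain of exons to which the program TALON assigned long reads. The deposited K562 table lists 506946 models, of which 99993 had reads in K562, in 12442 of 20565 annotated genes and in 633 antisense and 707 intergenic genes that the annotation lacks.

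The study sequenced native RNA molecules of cell lines by nanopore, with no cDNA copy, in order to set such reads beside those of another long-read platform. Both K562 libraries came from total RNA of the line, and the labels name no treatment. Nothing in the labels says whether they came from separate cultures, so differences between them may be technical, and p-values measure only the difference between these libraries. The labels give the cell type of K562 as a lymphoblastoid cell line, a term for B cells, which was checked below. Library 1 held 142837 reads and library 2 held 313454. A single read was therefore worth 7.0 and 3.19 CPM (reads scaled to a library of 1000000), and a count of 0 allowed a level of up to 21 and 9.57 CPM (3 counts). Each read was counted once whatever its length, so CPM is a number of molecules read and is not divided by gene length. Intervals and floors given here cover counting error only.

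Most human genes can be transcribed and spliced into several RNAs that differ in their start, exons or end. A long read can show the whole exon chain of 1 molecule, but direct RNA sequencing enters a molecule at its poly(A) tail, so a read that stops early shows only the 3′ part. TALON calls a model known when its exon chain is annotated. An incomplete splice match holds a consecutive part of an annotated chain, called a suffix when it is the 3′ part and a prefix when it is the 5′ part. A new combination joins annotated splice sites in a way not annotated, an unannotated-site model uses at least 1 splice site outside the annotation, and a genomic model overlaps a gene on its strand without a splice chain that matches it.

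The markers of the line were read in both libraries. HBG2, the G-gamma chain of fetal haemoglobin, had 2253 and 3884 reads and was the most abundant annotated gene. PRAME, a cancer-testis antigen of many leukaemias, had 190 and 438 reads. GATA1, the transcription factor that directs red cell and megakaryocyte genes, had 41 and 104 reads. The B cell list did not match the labelled cell type. Of its 11 genes, 8 had no read in either library, among them CD79A, MS4A1, PAX5 and IGHM, and the other 3 had 1 read each. All 13 hepatocyte genes were at 0. T and NK cell genes held 12 reads in all, 10 of them CD3D, myeloid genes 7 and megakaryocyte genes 6, all of ITGA2B. The fibroblast and matrix list held 50 and 289 reads, of which 48 and 276 were VIM, an intermediate filament gene that many cultured cells express.

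A few gene families took a large part of the reads. The 25 most abundant annotated genes held 14.4% of the reads of library 1 and 16.1% of library 2, and 19 of the 25 encode ribosomal proteins. All 79 ribosomal protein genes of the fixed lists had reads, and together they took 22.3% and 26.3%. The gamma-globin genes had the highest mean levels. HBG2 stood at 15773 CPM in library 1 and 12391 in library 2, a mean of 14082 ± 2392 (SD, n = 2). HBG1, the A-gamma chain, stood at 12469 and 9915 CPM, 11192 ± 1806. HBE1, the embryonic epsilon chain, stood at 5447 and 4789 CPM.

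Outside the globins, the highest gene was EEF1A1, the factor that brings aminoacyl-tRNA to the ribosome, at 8457 and 11042 CPM. It was followed by RPS2, a protein of the small ribosomal subunit, at 7099 and 10410 CPM, and by the stalk proteins RPLP0, at 6112 and 8196, RPLP1, at 6084 and 7551, and RPLP2, at 6231 and 7220 CPM. HBG1 in library 2 lay below EEF1A1 and RPS2 in that library, so the order of the genes after HBG2 differed between the libraries. FTL, the ferritin light chain that stores iron, varied least among the 25 genes and stood at 6021 and 5995 CPM. ENO1, the glycolytic enolase, stood at 4264 and 3981 CPM. In the rest of the 25 genes means ranged from 3972 CPM for RPL8 to 6614 for RPS18. In 23 of the 24 pairs of neighbours in the order, the means differed by less than the larger SD of the pair, so the order itself is not resolved.

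**Figure D1:**
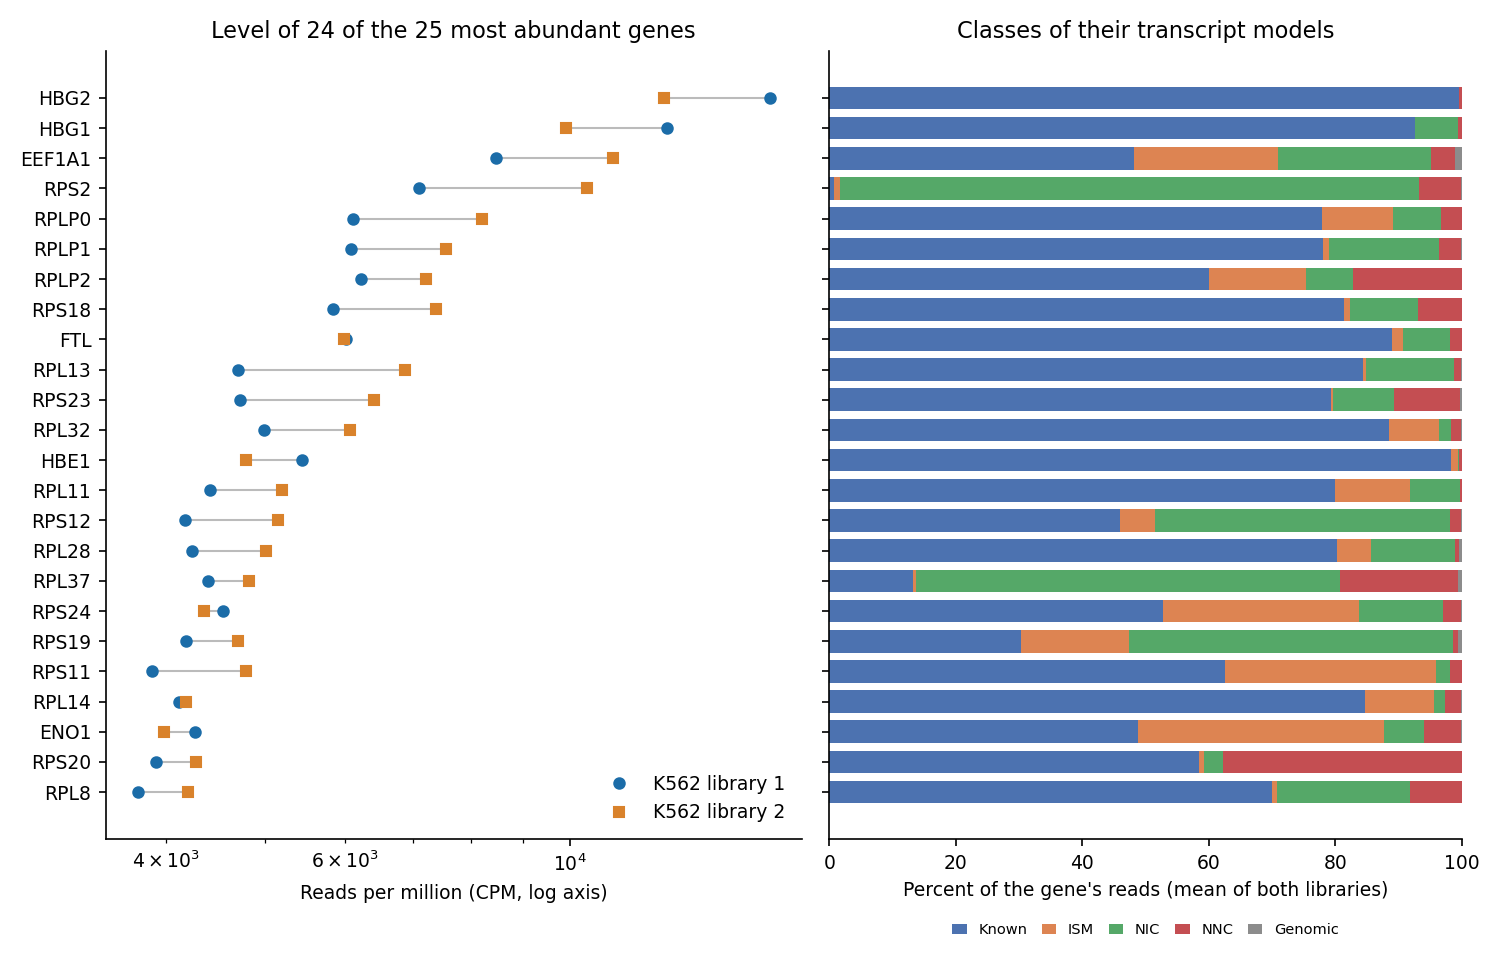
Level and model classes of 24 of the 25 most abundant annotated genes in K562. The left panel plots CPM on a log axis, with circles for library 1 and squares for library 2, and the right panel plots the percent of each gene's reads in each class as the mean of both libraries (Known, annotated chain; ISM, incomplete splice match; NIC, new combination; NNC, unannotated splice site; Genomic). The globins HBG2, HBG1 and HBE1 were over 92% known, whereas RPS2 was over 90% new combination.

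Most reads of each globin gene fell on a single model. They lie in a cluster on chromosome 11 and another on chromosome 16, and each encodes a chain of the oxygen carrier. In GRCh38, HBG1 spans chr11:5248079-5249859 and HBG2 chr11:5253190-5505605 on the minus strand, the latter overlapping HBE1 at chr11:5268345-5505652. HBZ lies at chr16:152687-154503, HBA2 at chr16:172876-173710 and HBA1 at chr16:176680-177522 on the plus strand. Haemoglobin of the embryo and fetus uses the zeta, epsilon and gamma chains before the adult beta chain takes over. HBG2-201, a known model of 3 exons, held 2241 of the 2253 reads of HBG2 in library 1 and 3861 of 3884 in library 2, 99.5% and 99.4%. HBE1-203 held 765 of 778 and 1475 of 1501 reads, and HBZ-201 of the embryonic zeta gene 299 of 339 and 466 of 521. HBA1-201 held 366 of 395 and 613 of 647 reads, and HBA2-201 held 150 of 166 and 149 of 155. For HBG1, HBG1-201 held 1648 of 1781 reads and 2876 of 3108, and new combinations held 6.74% and 6.82%. Known models as a whole made up 88.2% to 99.6% of the reads of these 6 genes in every library. The adult genes of the chromosome 11 cluster were nearly silent, with 1 and 0 reads of HBB and 9 and 2 of HBD. HBM had no read, which allows up to 21 and 9.57 CPM, and the theta gene HBQ1 had 10 and 29.

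Reads of the gamma genes and of the alpha genes cannot be divided with certainty, because the coding sequences are near copies. The annotated coding sequences of HBG1-201 and HBG2-201 have 441 bases each before the stop codon and differ at 2 of them (99.5% identity), as found by a script in the GENCODE release 29 transcripts. Those of HBA1-201 and HBA2-201 have 426 bases and no difference. The stretches around the gamma differences are shown because a direct RNA read must be right at such a base, or in the untranslated regions, to be given to its gene. Positions count from 1 at the A of the start codon, the first base is that of HBG1, and the capital marks the differing base, C227T in the first pair and C410G in the second.
HBG1: cttgggagatgccaCaaagcacctggatga
HBG2: cttgggagatgccaTaaagcacctggatga
HBG1: gaagatggtgactgCagtggccagtgccct
HBG2: gaagatggtgactgGagtggccagtgccct
The second difference is the one that gives the chains their names, alanine for A-gamma and glycine for G-gamma. How the submitters' alignment placed reads at such copies was not tested.

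Over all reads of the line, known models were the largest class. They took 47.3% of the reads of library 1 (95% Wilson interval 47.1 to 47.6) and 47.4% of library 2 (47.3 to 47.6). Incomplete splice matches took 17.7% and 18.5%, and suffixes made up most of them, 14.1% and 14.9%, against 0.978% and 0.982% for prefixes. New combinations took 17.8% and 17.7%. Models with an unannotated splice site took 6.81% and 6.13%, genomic models 10.1% and 9.90%, and nearly all of the last had a single exon (9.81% and 9.72%). Antisense and intergenic models together stayed under 0.4% in each library. Shares of models differed from shares of reads. Known models were 11.5% of all models with reads and averaged 18.8 reads each, while models with an unannotated site were 15.2% and averaged 1.91.

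Protein-coding genes took 94.3% and 94.7% of the reads, and processed pseudogenes, intronless copies of mRNAs, 2.97% and 2.43%. Of 38 such pseudogenes with at least 20 reads in each library, 35 were led by a known model, with a median share of 100%. Reads of a pseudogene and of its parent gene can be near-identical, so these levels are uncertain. Long noncoding genes of the class lincRNA took 0.548% and 0.639%.

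The shares of the classes moved with the annotated size of the gene's most-read known model. Genes with at least 20 reads in each library and a known model with reads were grouped by their most-read known model. Where it was at least 500 and under 1000 bases long (304 genes), 70.5% of reads in library 1 and 72.3% in library 2 were known and 9.23% and 8.47% incomplete splice matches. Where it was 3000 bases or longer (169 genes), 36.1% and 36.0% were known and 24% and 25.1% incomplete. Of the summed reads of the 44 genes of under 500 bases, 58.2% and 52.5% were known, but the median gene there was 83.4% known, against 71.5% at 500 to 1000 bases. By exon number the range was wider. The 52 single-exon genes had 90.8% and 92.6% known reads, those of 4 or 5 exons 59.0% and 61.5%, and the 90 genes of 15 or more exons 16.3% and 16.6%. A model without introns offers no splice chain to be incomplete or recombined, so the known share at 1 exon is partly set by the class definitions. In the last group incomplete splice matches held 39.1% and 44.3% of reads, mostly suffixes (33.6% and 37.5%), and prefixes 2.19% and 2.85%. The length given for a known model is its annotated length, not the length of the reads, which was not analysed here. RPL37, with 628 and 1511 reads and a most-read model of 348 bases, fell in the longest group through its known model of 7686 bases.

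**Figure D2:**
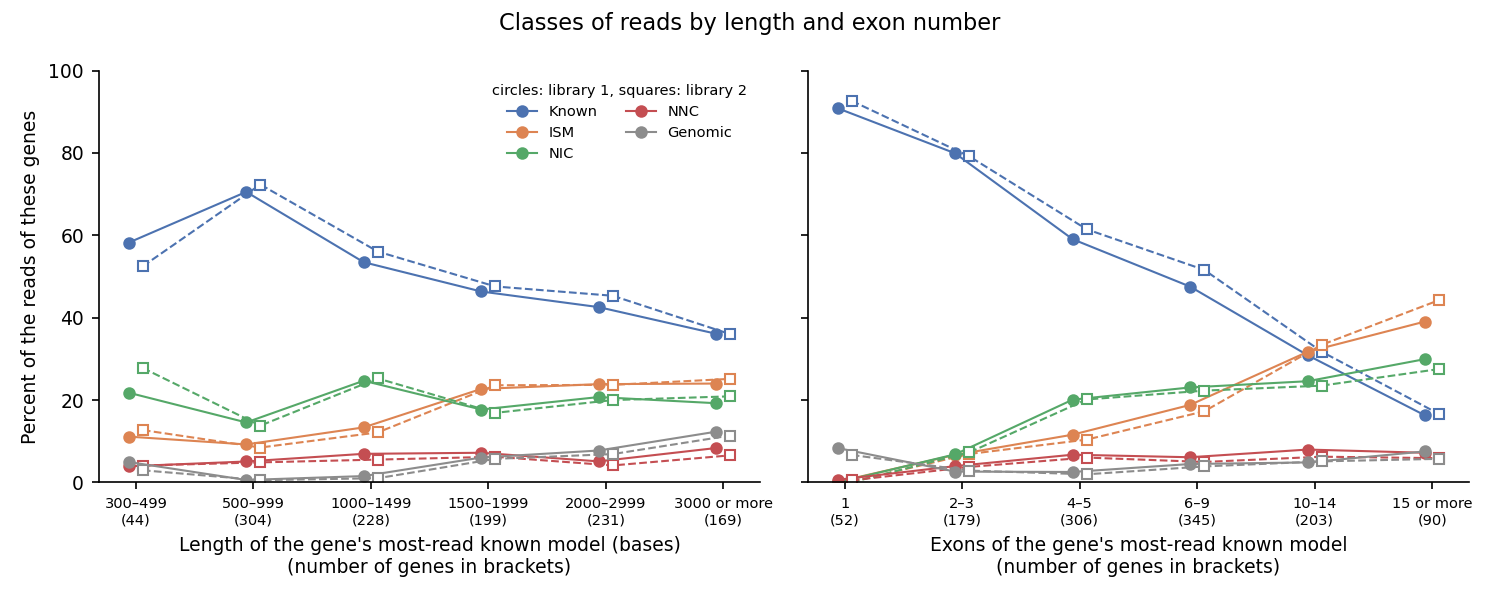
Percent of reads in each class for genes grouped by the length (left) and exon number (right) of their most-read known model, over genes with at least 20 reads in each library. Filled circles with solid lines are library 1 and open squares with broken lines are library 2, and the number of genes stands in brackets. The known share fell from 90.8% and 92.6% in single-exon genes to 16.3% and 16.6% at 15 exons or more, and the incomplete share was highest there. The known share of single-exon genes is partly set by the class definitions, since a model without introns has no splice chain.

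Most models were seen once. Of the 99993 models, 67487 (67.5%) had 1 read over both libraries and 20679 (20.7%) had reads in both. The recurring models were 46.2% of those of library 1 and 27.2% of those of library 2, and they carried 81.4% and 76.6% of the reads. Known models recurred most, 5136 of 11533 (44.5%), followed by 4050 of 15588 genomic models (26.0%), 6067 of 29467 incomplete matches (20.6%), 3921 of 27380 new combinations (14.3%) and 1443 of 15178 with an unannotated site (9.51%). At 5 or more reads in each library 3277 models remained, of which 1645 were known, 627 incomplete, 428 new combinations, 388 genomic and 181 with an unannotated site.

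The classes differed in recurrence at a single read and came close to each other at higher support. Of models with 1 read in library 2, library 1 also held 24.4% of the known (95% Wilson interval 23.1 to 25.8), 17.2% of the genomic, 13.7% of the incomplete, 10.03% of the new combinations and 5.85% of those with an unannotated site (5.38 to 6.35). Of models with 10 to 19 reads in library 2, library 1 held 96.7% of the known, 95.2% of the genomic, 94.2% of the incomplete, 94.8% of the new combinations and 92.2% of those with an unannotated site (85.3 to 96.0). In the other direction, all 832 models with 20 or more reads in library 1 had reads in library 2. Of the 1687 models with 20 or more reads in library 2, 7 had none in library 1. They were the single models MT-CO2-201 (27 reads), RPS12-202 (23) and 1 unannotated model each of RPS9 (24), RPS24 (21) and CALU (20), and a pair of ACSM3 models (26 and 25), a gene whose level itself differed between the libraries. These 7 were singled out after their values were seen.

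Per gene, the leading model is the one with most reads over both libraries, among the 1225 genes with at least 20 reads in each. It was a known model in 863 genes (70.4%), a genomic model in 133, an incomplete match in 104, a new combination in 93, a model with an unannotated site in 27 and an antisense model in 5. Of the 133 genomic leaders 132 had a single exon. The leading model held a median of 41.8% of the gene's reads. It held at least 90% in both libraries in 74 genes, 49 of them led by a single-exon model, at least 50% in 415, and under 20% in both in 129. In the median gene 21 models had reads, 7 of them in both libraries and 2 of them known. TRIM28, a chromatin corepressor, had most with 163 models on 84 and 229 reads, of which 3 were known, followed by RPL4 with 154 and EEF2, the translocation factor of translation, with 152.

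The same model led in both libraries in 1016 of the 1225 genes (82.9%). This held for 90.6% of the genes led by a known model, 70.4% of those led by a model with an unannotated site, 69.9% for new combinations, 69.2% for genomic models and 51.0% for incomplete matches. The median share was 49.5% for known leaders, 31.2% for genomic, 29.96% for new combinations, 24.4% for unannotated-site models and 19.2% for incomplete ones. The 5 antisense leaders had a median of 100% and were the same in both libraries. In the 1154 protein-coding genes the leader was the principal model of the APPRIS annotation, its choice of a gene's main protein isoform, in 725, which is 88.7% of the 817 led by a known model. Against the principal model with most exons, where a gene has several, the leader had the same number of exons in 665 of the 1154 genes, 1 fewer in 204, at least 2 fewer in 280 and more in 5.

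**Figure D3:**
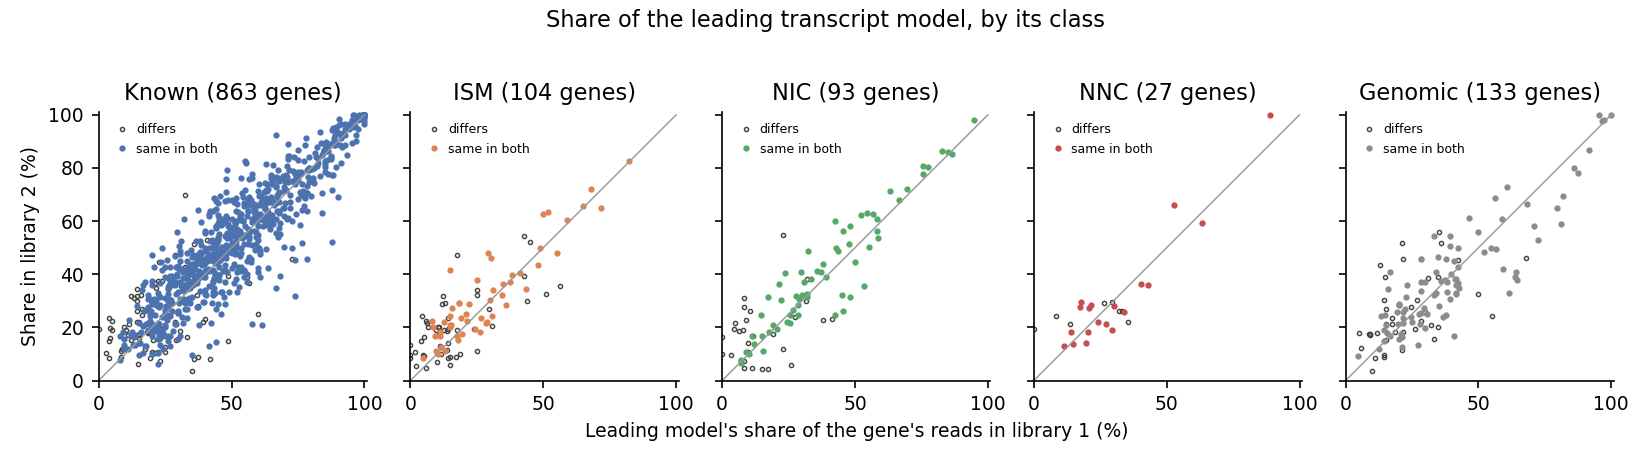
Share of the gene's reads held by its leading model in library 1 (x axis) and library 2 (y axis), in percent, 1 panel per class of leading model. Each point is a gene with at least 20 reads in each library, open points are genes whose leader differed between the libraries, and the line marks equal shares. The 5 genes led by an antisense model are not drawn. Of the 5 classes drawn, known leaders had the highest median share, 49.5%, and most often led in both libraries (782 of 863 genes), and incomplete matches lay mostly under 40% with 53 of 104 the same.

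Ribosomal protein genes, which build the subunits of the ribosome and have short first exons, held the most abundant leaders outside the annotation. Of 76 such genes with 20 reads in each library, 57 were led by a known model, 16 by a new combination, 2 by an incomplete match and 1 by a model with an unannotated site. RPS2 (chr16:1962052-1964860, minus strand) was led by a new combination of 6 exons with 767 of 1014 reads in library 1 and 2630 of 3263 in library 2, 75.6% and 80.6%, and was the most-read model of the line outside the annotation. Known models held 0.888% and 0.644% of the reads of RPS2. Its principal model, RPS2-201, has 7 exons. RPL37 was led by a new combination of 3 exons with 356 of 628 and 949 of 1511 reads. RPS29 had the highest share of new combinations of any gene with at least 50 reads in each library, 95% and 97.9%, on 1 model of 3 exons with 113 and 428 reads. RPS2 followed with 90.1% and 93.1%, RPL6 with 88.1% and 91.7%, RPS15A with 87.9% and 88.4%, and RPS27A, a ubiquitin fusion gene, with 79.5% and 85.7%.

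These leaders shared an exon number 1 below that of the annotated gene. All 16 new combinations that led a ribosomal protein gene had exactly 1 exon fewer than the gene's principal model with most exons, though in 2 of the 16 another principal model had the same number as the leader. New combinations were not alone in this. Of the 57 ribosomal protein genes led by a known model 24 also had 1 exon fewer, among them all 12 led by one that is not principal. Over all 76 ribosomal protein genes the number was 41. In other protein-coding genes led by a new combination, 26 of 72 had 1 exon fewer, 35 at least 2 fewer, 9 the same number and 2 more. The first exon of the principal model had a median length of 92.5 bases in the 16 ribosomal protein genes led by a new combination. It was 97 bases in all 76 ribosomal protein genes and 209 bases in the 1078 other protein-coding genes. The table gives no coordinates for models outside the annotation, so which exon is missing is not known from it. RPS19, a gene mutated in Diamond-Blackfan anaemia, was led by a new combination of 5 exons with 222 of 598 and 601 of 1474 reads, beside the known RPS19-206 of 6 exons with 142 and 532. RPL7A, RPL19 and RPL35A were likewise led by new combinations, at 277 of 476 and 787 of 1295 reads, 266 of 530 and 524 of 1175, and 130 of 388 and 456 of 1196. In RPS4X the lead changed between the libraries, from RPS4X-201 with 136 reads against 127 to the new combination with 390 against 358. RPS14, lost in the 5q- syndrome, was led by an incomplete suffix of 4 exons with 242 of 410 and 579 of 958 reads, beside 91 and 281 of RPS14-203 with 5 exons.

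Large shares of reads on 1 class outside the annotation were found in other families too, beside the ribosomal protein gene RPS20. BTF3, a factor of the nascent polypeptide complex, had the highest share of models with an unannotated splice site, 56.0% and 67.8%, with most of them on a model of 6 exons with 66 and 212 reads, and no read of a known model. SNRPG, a core protein of spliceosomal particles, followed with 41.7% and 42.9%, APRT, an adenine salvage enzyme, with 42.3% and 37.7%, RPS20 with 33.9% and 41.6%, and TOMM7 of the mitochondrial import pore with 37.3% and 38.2%. In RPS20 the model with the unannotated site held 186 and 550 reads beside 334 and 711 of RPS20-201, and both had 4 exons.

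Incomplete suffixes were highest in AC104389.4, at 82.1% and 82.5%. This gene (chr11:5254392-5678434, minus strand) overlaps HBG2 and HBE1 on the same strand and had no read of a known model, so its reads are uncertain. Next was HSP90AB1, the constitutive cytosolic chaperone, at 72.4% and 77.3%. Its leader over both libraries was a suffix of 3 exons with 53 and 148 reads, while HSP90AB1-203 with 12 exons had 62 and 91. RPL34 had 69.5% and 74.0% suffixes, EMP3, a membrane protein gene, 72.7% and 69.1%, and AC093512.2, 64.6% and 70.7%. Reads of AC093512.2, which overlaps ALDOA, are uncertain, since the counting could divide reads between the overlapping genes otherwise. Prefixes were highest in ANP32B, an acidic nuclear protein, at 25.7% and 24%, the most of the 446 genes with at least 50 reads in each library. Incomplete matches that were neither suffix nor prefix were highest in CHCHD3, a mitochondrial inner membrane protein, with 64 of 89 and 134 of 206 reads, then in CALR, the calcium-binding chaperone of the endoplasmic reticulum, with 37 of 67 and 156 of 322, and HMGN2, a nucleosome-binding protein, with 106 of 218 and 99 of 198. In each of the 3 the leading model had a single exon.

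Among genes with at least 50 reads in each library, genomic models took all or nearly all reads of 4, RPL6P27 (100% and 100%), EEF1A1P5 (99.6% and 100%), FP671120.1 (98.9% and 99.3%) and AC010894.3 (98.9% and 98.5%). The first pair are pseudogenes of RPL6 and EEF1A1, and reads there cannot be told apart with certainty from those of the parent genes. HIST1H2BK, a histone gene, came next at 86.7% and 83.7%, on a genomic model of 2 exons with 206 and 210 reads.

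The erythroid programme showed different degrees of completeness by gene. BLVRB, biliverdin reductase B, was led by BLVRB-201 with 102 of 136 and 341 of 440 reads. GYPC, a glycophorin of the red cell membrane, was led by GYPC-201 with 33 of 61 and 133 of 188. NFE2, a globin locus transcription factor, was led by NFE2-202 with 18 of 41 and 38 of 95. For GATA1 (chrX:48786554-48794311), the known GATA1-202 with 6 exons held 5 of 41 reads in library 1 and 33 of 104 in library 2. The suffixes with 5, 4, 3 and 2 exons held 10 and 16, 6 and 15, 3 and 9, and 3 and 4 reads. The 5-exon suffix thus led library 1 and the full chain led library 2, on few reads. KLF1, the activator of adult beta-globin, was led over both libraries by a suffix of 2 exons with 18 of 42 and 44 of 81 reads, beside 19 and 27 of the 3-exon KLF1-201. TFRC, the transferrin receptor that takes up iron, had no read of a known model among 34 and 43 reads, and a single-exon genomic model held 27 and 28. In bulk RNA a lower level can mean fewer cells of a kind or less RNA per cell, which cannot be told apart here.

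PRAME (chr22:22547701-22559361, minus strand) was spread over 62 models, of which 25 recurred, against 24 and 13 for GATA1 and 6 and 5 for HBG2. Known models held 8.42% and 12.6% of its reads, divided over PRAME-201 with 8 and 14 reads, PRAME-203 with 3 and 17, PRAME-202 with 3 and 14 and others. Incomplete matches held 65.8% and 64.2%. The leader was a suffix of 2 exons with 40 of 190 and 109 of 438 reads, and it was the same in both libraries. Other cancer-testis antigens belonged mainly to the GAGE family, whose genes are near copies of each other, so their shares are uncertain. GAGE12F was led by GAGE12F-201 with 75 of 97 and 105 of 160 reads, GAGE2A by GAGE2A-201 with 51 of 75 and 63 of 99, and GAGE1 by a new combination with 21 of 82 and 21 of 97. Of the 19 genes of this list 17 had reads, and 10 had at least 20 in each library, of which 6 were led by a known model.

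Of the iron storage and transport genes, the ferritin genes had most reads. FTL-201 held 758 of 860 and 1689 of 1879 reads of FTL, and FTH1-201 of the ferritin heavy chain 362 of 420 and 1062 of 1231. PCBP1, an iron chaperone without introns, was led by PCBP1-201 with 35 of 58 and 65 of 88, and its relative PCBP2 by a suffix of 2 exons with 10 of 41 and 30 of 156. UROD, uroporphyrinogen decarboxylase, was led by a new combination of 9 exons with only 25 of 130 and 44 of 209 reads. All 15 genes of heme synthesis and breakdown had reads, but 3 reached 20 in each library.

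The remaining lists were read for the class of their leaders. Of 14 proteasome subunit genes 13 were led by a known model, and the leader was the same in both libraries in all 14. PSMB1-201 held 108 of 178 and 171 of 276 reads of PSMB1, whereas PSMB7 was led by a model with an unannotated site on 19 of 94 and 24 of 131. In glycolysis 9 of 11 genes were led by a known model. ALDOA-209 of aldolase A held 172 of 203 and 778 of 896 reads, ENO1-201 269 of 609 and 585 of 1248, GAPDH-201 204 of 605 and 380 of 958, and TPI1-201 96 of 153 and 157 of 253. Of 28 splicing factor and hnRNP genes 15 had a known leader, 6 an incomplete one and 5 a genomic one, with a median leading share of 26.6% against 41.5% over all 1219 annotated genes. HNRNPA1-203 held 53 of 231 and 206 of 722 reads, SNRPD2-201 96 of 137 and 189 of 245, and SNRPF-201 104 of 118 and 131 of 138. Of 21 chaperone genes 13 had a known leader and 6 an incomplete one, at a median share of 25.8%. In translation factors 21 of 30 genes had a known leader, EIF1-203 with 169 of 210 and 528 of 664 reads, EEF1G-201 with 107 of 346 and 422 of 1191, and EEF2-201 with 76 of 300 and 347 of 1242.

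Cytoskeletal genes were led by known models in 8 of 11 cases, PFN1-201 of profilin with 185 of 214 and 306 of 343 reads, ACTB-201 with 171 of 367 and 292 of 615, and CFL1-201 of cofilin with 93 of 168 and 137 of 250. ACTG1 was led by a single-exon genomic model with 42 of 171 and 77 of 321. Of the small nucleolar RNA host genes, whose introns carry guide RNAs for ribosomal RNA modification, 4 of 8 had a known leader. SNHG5-202 held 51 of 141 and 104 of 278 reads, and LRRC75A-AS1 was led by a new combination with 44 of 75 and 135 of 252. Mitochondrially encoded mRNAs, which have no introns, were led by MT-CO3-201 with 163 of 165 and 720 of 729 reads of MT-CO3 and by MT-CO1-201 with 17 of 34 and 64 of 132 of MT-CO1.

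Genes whose most-read known model is annotated at over 5000 bases numbered 39, of which 24 were led by a known model. ATP5MC3-201 (5484 bases), of the ATP synthase ring, held 113 of 250 and 160 of 346 reads, ATP5F1A-202 (5818 bases) 33 of 79 and 67 of 145, and EIF3M-208 (5051 bases) 31 of 77 and 48 of 149. SCD, a fatty acid desaturase, had 1 and 2 reads of the 5362-base SCD-201 and was led by a single-exon genomic model with 10 of 37 and 39 of 128.

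Reads on 2 or more alternative annotated models were found in part of the deeper genes. Of 446 genes with at least 50 reads in each library, 74 (16.6%) had at least 2 known models that each took at least 20% of the gene's known reads in both libraries. The minimum was set on all reads of a gene, so known reads could be few, 4 and 7 in RPS29. In 52 of the 74 the shorter chain lacked only the first introns of the longer one, in 44 of these by 1 exon. Ribosomal proteins are encoded by 25 of the 52. In such pairs a read of the longer model that stops early could be counted to the shorter one, which was not tested. EEF1A1-201 with 8 exons had 427 and 1246 reads, 73.4% and 74.6% of the known reads of EEF1A1, beside EEF1A1-202 with 7 exons at 155 and 424. RPLP2-201 with 5 exons had 255 and 818 beside RPLP2-207 with 4 exons at 246 and 570, a share of 49.6% (95% Wilson interval 45.3 to 53.9) and 58.0% (55.4 to 60.6). RPS18-230 held 59.2% and 66.2% of the known reads, RPS23-201 47.6% and 56.8% and RPL32-204 50.5% and 55.6%, each beside a model with 1 exon fewer. RPL11-203 held 66.3% and 72.4%, but there the shorter model, also with 1 exon fewer, lacks the last introns, so RPL11 is not among the 52. In RPL28 and RPL14 the shorter chain held more, with RPL28-208 at 76.4% and 67.5% and RPL14-208 at 74.4% and 71.5%.

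In the other 22 of the 74 genes the pair differed elsewhere. The shorter chain lacked the last introns in 4, a single inner exon was skipped in 3 (GNAS, HNRNPD and EIF4H), the first introns differed in 6 (among them NDUFS5, HK1, PARK7, SNU13 and DDX39B), the last introns in 4 (RANBP1, SNRPB, NDUFB11 and PDCD2), inner splice sites in 2 (YDJC and SERBP1) and both ends in 3. SNU13, a protein of spliceosomal and nucleolar particles, was divided nearly evenly between starts 6287 bases apart, with 23 and 39 reads of SNU13-202 and 23 and 31 of SNU13-201. ALDOA used mainly the first exon of ALDOA-209, with 172 and 778 reads against 15 and 59 of ALDOA-206, whose start lies 1399 bases upstream.

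To see inner exons directly, pairs of known models whose introns differ by 1 inner exon alone were sought. Models needed at least 5 reads in each library, a rule chosen after values were seen. Transcript ends were not compared and can differ within a pair. HNRNPD-201 and HNRNPD-203, for example, are annotated at 3033 and 1585 bases. Of 212 genes with at least 2 such models 15 had such a pair, and in 9 the whole exon lies in coding sequence. GYPC-201, with an exon at chr2:126690255-126690311 on the plus strand, had 33 and 133 reads, and GYPC-203, without it, 8 and 17. The share with the exon was 80.5% (95% Wilson interval 66.0 to 89.8) and 88.7% (82.6 to 92.8). HNRNPD, an RNA-binding protein of AU-rich elements, had 8 and 15 reads of HNRNPD-201 with the exon at chr4:82356537-82356683 on the minus strand and 24 and 11 of HNRNPD-203 without it, 25% (13.3 to 42.1) and 57.7% (38.9 to 74.5). EIF4H, a cofactor of the helicase EIF4A, had 6 and 5 reads of EIF4H-201 with the exon at chr7:74190247-74190306 on the plus strand and 9 and 15 of EIF4H-202 without it, 40% (19.8 to 64.3) and 25% (11.2 to 46.9). The intervals of the libraries overlapped for each of the 3 genes, which does not show equal shares, and the difference was not tested. Of all known reads of HNRNPD, HNRNPD-203 held 68.6% (52.0 to 81.4) in library 1 and 32.4% (19.1 to 49.2) in library 2. Those intervals did not overlap.

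These 3 exons are given because they are the coding segments by which the intron chains of the paired models differ. Each has a length divisible by 3, so the reading frame after it is kept. They are GRCh38 sequence of the GENCODE release 29 transcripts, 5′ to 3′ on the strand of the gene, with no part in capitals.
GYPC exon: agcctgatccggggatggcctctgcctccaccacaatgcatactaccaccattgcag
EIF4H exon: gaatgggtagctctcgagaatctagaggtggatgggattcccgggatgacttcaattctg
HNRNPD exon: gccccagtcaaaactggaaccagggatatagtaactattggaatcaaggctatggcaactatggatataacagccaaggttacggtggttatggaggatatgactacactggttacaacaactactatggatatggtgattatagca
The exons have 57, 60 and 147 bases. The coding exon of ISOC2 (210 bases) also keeps the frame, with the exon in 77.3% and 83.3% of reads, while those of NME2, HDDC2, BOLA3 and GGCT have 113, 103, 89 and 146 bases and do not divide by 3. NME2, a nucleoside diphosphate kinase, had the exon in 92.0% and 95.8%, HDDC2 in 51.9% and 66.7%, BOLA3, an iron-sulfur cluster factor, in 68.4% and 71.8%, and GGCT in 64.3% and 75%.

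**Figure D4:**
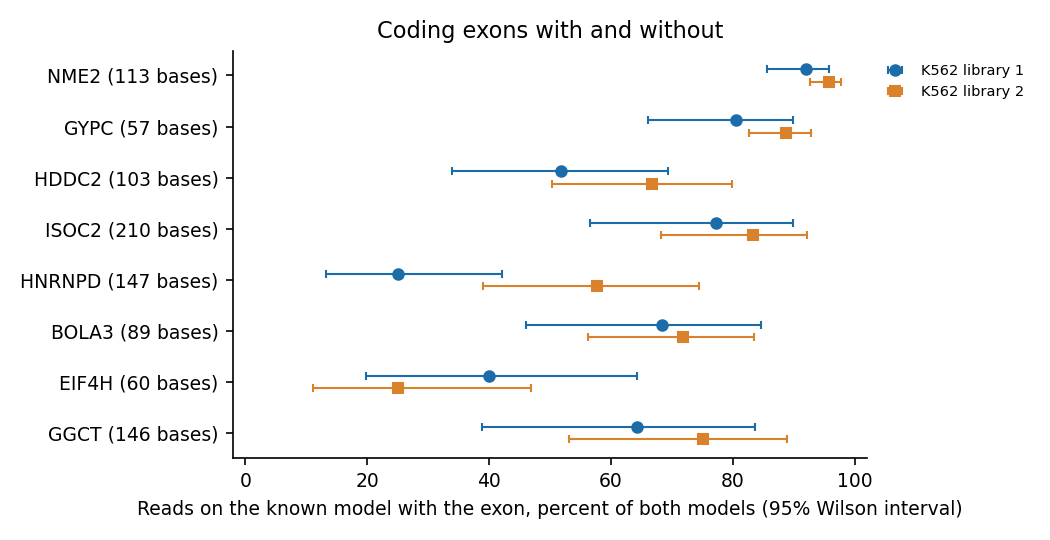
The 8 coding exons described, each present in 1 known model and absent from another of the same gene, with no other difference in introns. The ends of the models can differ too. Points give the model with the exon as a percent of the reads of both models, circles for library 1 and squares for library 2, and bars are 95% Wilson intervals. NME2 had the exon in 92.0% and 95.8%, and HNRNPD, at 25% and 57.7%, differed most between the libraries. Its intervals overlapped, which is no test of a difference.

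The libraries were then compared gene by gene for the share of the leading model. Fisher's exact test, two-sided with Benjamini-Hochberg adjustment over 1225 genes, compares these 2 libraries and no conditions. It called 16 genes at an adjusted p under 0.05 and a difference of at least 10 percentage points, 1.31% of those tested. Of these, 13 had the higher share in library 2 and 3 the lower. The leader was chosen by reads over both libraries, most of them from library 2, which favours a higher share there. That split is therefore partly set by the choice of leader. The median difference, library 2 minus library 1, was 1.82 points. The median absolute difference over all 1225 genes was 6.35 points. When only genes with at least 50 reads in each library were tested, 23 were called. RPS15-210 held 276 of 488 reads in library 1 and 597 of 787 in library 2, 56.6% and 75.9% (exact test, adjusted p = 1.4e-09), and the 4-exon RPS15-209 138 and 115. RPL39-201 with 3 exons held 65 of 103 and 293 of 360 (exact test, adjusted p = 0.016), beside RPL39-202 with 2 exons at 38 and 64. RPL7-201 held 40 of 139 and 137 of 290 reads (exact test, adjusted p = 0.024), while a new combination with 1 exon fewer led library 1 with 57 and had 81 in library 2. ATP5PO-201, of the ATP synthase stalk, held 45 of 145 and 163 of 310 (exact test, adjusted p = 0.0083).

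The largest rise was in LSM4, an RNA decay and splicing factor, whose 2-exon suffix held 12 of 68 and 63 of 133 reads, 17.6% and 47.4% (exact test, adjusted p = 0.0089). Its 5-exon LSM4-203 had 31 and 38 reads, so the known model led in library 1 only. Lower in library 2 were SRSF9-201 of a splicing factor, 29 of 33 and 26 of 50 (exact test, adjusted p = 0.045), CDC37-201 of the kinase chaperone, 20 of 41 and 9 of 60 (exact test, adjusted p = 0.023), and TOMM6-201 of the mitochondrial import pore, 122 of 145 and 89 of 141 (exact test, adjusted p = 0.010). In CDC37 a new combination of 7 exons had 1 read in library 1 and 19 in library 2. In TOMM6 the other known model, TOMM6-202, also of 3 exons, had 19 and 45 reads. When the share of all known reads was compared in place of the leading model's, ATP5PO and RPL7 kept their calls. LSM4 and RPL39 lost theirs and turned in sign. The other 4 calls named here were lost, with differences of -30.4 points in CDC37, -18.9 in SRSF9, -2.21 in TOMM6 and 3.93 in RPS15. The known share is a different quantity, since in RPL39, RPS15 and TOMM6 a competing model is also known. In LSM4 the leader itself is an incomplete match. A call lost in these genes is therefore no check on the leading share. The call for SRSF9 was also lost when genes with at least 10 reads per library were tested (exact test, adjusted p = 0.079).

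Gene levels were compared in the same way. The exact test on each gene's share of its library's reads, over 3361 annotated genes with at least 20 reads in all, called 357 genes at an adjusted p under 0.05 and at least 2-fold, 10.6% of those tested. Of them 132 were higher and 225 lower in library 2, a split that became 151 and 166 when library totals were scaled by the median ratio of genes. ACSM3, a mitochondrial acyl-CoA synthetase, had 6 reads in library 1 and 251 in library 2, 42.0 and 801 CPM, 19.1-fold (exact 95% counting interval 8.64 to 52.4, adjusted p = 9.1e-30). FAM178B had 6 and 179 reads, 13.6-fold (6.12 to 37.5), and ALDOC, the neuronal-type aldolase, 6 and 174, 13.2-fold (5.95 to 36.5). MT-ND4 of mitochondrial complex I had 3 and 82, a ratio of 12.5 (4.12 to 61.6), and GDF15, a stress-induced cytokine, 3 and 66, a ratio of 10.03 (3.28 to 49.9). Lower in library 2 were ID3 with 18 and 3 reads, a ratio of 0.0759 (0.0143 to 0.260), and ID1 with 34 and 9, 0.121-fold (0.0509 to 0.257), both inhibitors of helix-loop-helix factors. GPATCH4 had 20 and 5 reads, STMN3, a microtubule regulator, 16 and 4, and HBBP1, the beta-globin pseudogene, 26 and 7.

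Some lists leaned to 1 library. Over all 3361 genes tested, 132 were called higher in library 2, 225 were called lower and 1557 had a ratio above 1. All 7 mitochondrially encoded mRNAs tested had more CPM in library 2, with a median ratio of 3.49 against 0.954 over all genes tested, and 4 were called higher. MT-CO3 had 165 and 729 reads, MT-CYB 5 and 51, and MT-CO2 0 and 27, at least 4.10-fold higher against a floor of 3 counts in library 1. Of 35 splicing factor and hnRNP genes 11 were called lower in library 2 and none higher, with a median ratio of 0.587. HNRNPD had 113 and 108 reads, HNRNPU 71 and 55, SRSF1 46 and 22, and SRSF2 54 and 38. The count of 11 became 8 under median-ratio scaling and 7 without mitochondrial and ribosomal protein genes in the totals. Of 21 chaperone genes 7 were lower and 2 higher, a count that became 5 and 2 under both settings. HSPA8, the constitutive Hsp70, had 362 and 261 reads, 2534 and 833 CPM, a fold of 0.329 (exact 95% counting interval 0.279 to 0.386, adjusted p = 1.4e-39). HSPD1 and HSPE1, the mitochondrial chaperonins, had 118 and 101 and 109 and 89 reads, and the reticulum chaperones CALR and HSP90B1 were the higher pair at 67 and 322 and 57 and 254. Of the globins tested HBA2 was called lower, with 166 and 155 reads. Of the ribosomal proteins, 23 of 32 of the small subunit and 41 of 47 of the large had a ratio above 1, with medians of 1.13 and 1.19, and 1 was called, RPS27, higher with 27 and 130 reads (2 under median-ratio scaling). Ratios above 1 were found in 2 of 13 cancer-testis antigen genes and 2 of 14 proteasome genes, with medians of 0.70 and 0.702. None of the 15 genes of the erythroid list was called by the exact test, against 357 of all 3361 genes. An unadjusted p under 0.05 was found in 3 of the 15, against 969 of the 3361. Whether the list differs from all genes was not tested. In glycolysis ALDOA, with 203 and 896 reads, was called higher beside ALDOC. VIM, which held nearly all reads of the fibroblast list, was higher in library 2 as well, 2.62-fold (exact 95% counting interval 1.92 to 3.64), and its part in the other differences was not tested.

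**Figure D5:**
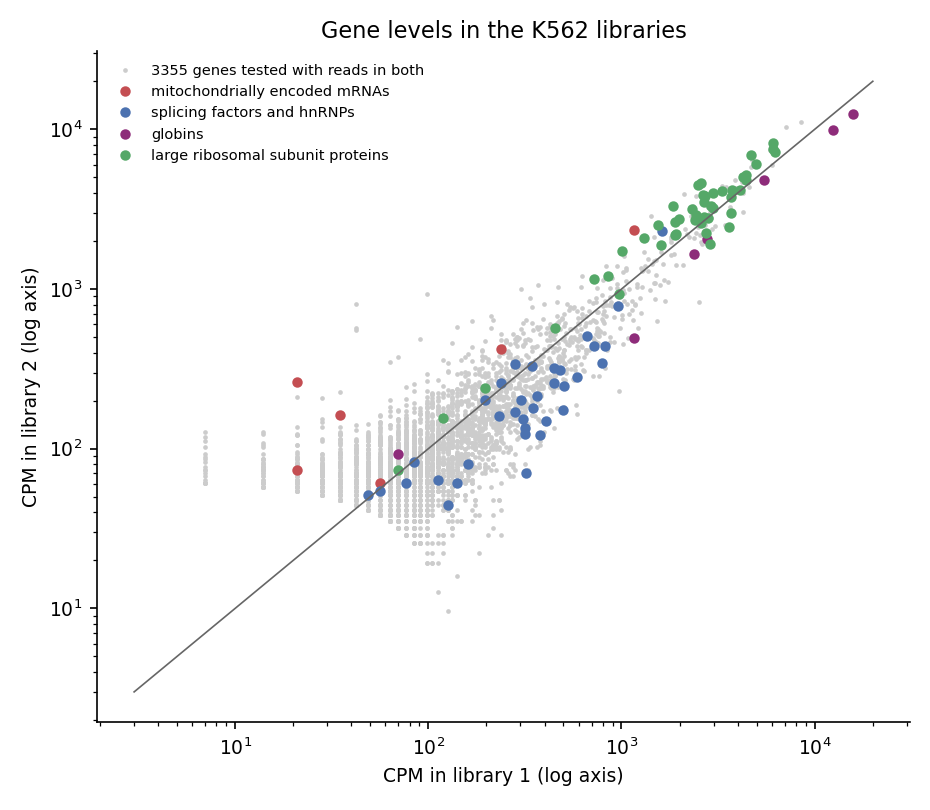
Level of each tested gene in library 1 (x axis) and library 2 (y axis), in CPM on log axes, for the 3355 genes with reads in both; 6 genes at 0 in library 1 or 2 are not drawn. The line marks equal levels and coloured points are members of 4 lists. Mitochondrially encoded mRNAs lay above the line and most splicing factors and hnRNP genes below it.

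Reads outside annotated genes were few. Antisense genes held 563 and 1048 reads, 0.394% and 0.334%, and intergenic genes 442 and 1075, 0.309% and 0.343%. Of 633 antisense genes 97 recurred, and of 707 intergenic genes 105. The antisense genes with most reads were ENCODEHG000049122 with 21 and 80 reads over 4 models and ENCODEHG000048905 with 31 and 59 on 1 single-exon model. Of the intergenic genes ENCODEHG000050903 had 67 and 61 reads over 29 models, and was alone in having 20 in each library, and ENCODEHG000050904 had 12 and 27 on 1 single-exon model.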

How the data were processed

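RNA of K562 was read by direct RNA sequencing, 2 libraries. The submitters' processing notes name minimap2 and hg38. The deposited table is TALON's abundance output, per the labels. Which release of TALON was run is not stated there. Per the file headers it holds read counts per transcript model and library, not normalized, beside each model's class, length and exon number, other values that the authors deposited. Tables of the other lines were not used.

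Counts were summed by gene (Python 3.11.15, pandas 2.3.3, numpy 2.4.6), and CPM were taken over all reads of a library. All 11533 known models and 12442 genes with reads matched GENCODE release 29 (GRCh38) by identifier, with equal exon numbers, and its APPRIS tags gave principal models. Leading models, class shares per gene and their test used genes with at least 20 reads in each library. The level test used annotated genes with at least 20 reads in all. Fisher's exact tests (scipy 1.17.1) were two-sided with Benjamini-Hochberg adjustment over all genes tested, and were tested on simulated data. They cover counting error between these libraries only. The leading model was chosen on the same reads that were then compared, with more weight on library 2, the deeper.

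Members, lists and rules were chosen with earlier results of these data known. Named were the 25 genes of highest mean CPM, up to 4 members with most reads per list (21 lists), up to 10 genes with most reads led by a model outside the annotation and up to 5 with the largest share per class (50 reads in each library), up to 10 with alternative known models, up to 5 called genes per direction and test, up to 2 antisense and 2 intergenic genes, and up to 5 with a most-read known model over 5000 bases. Other names were chosen after their values were seen. Some genes and 1 exon that these rules select are not reported here.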

Additional observations from a re-analysis of the deposited data

How the results depend on the processing

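Depth limits these results: library 1 had fewer reads, and most models had 1 read. Known reads, 47.4% of the mean library, were 46.2% with equal weight per gene, 43.5% without the 25 most abundant genes and 47.7% over annotated genes. Under the same settings incomplete matches, 18.1%, became 20.5% and 19.996%, genomic models, 9.98%, became 8.76%, 11.7% and 9.77%, and new combinations, 17.7%, became 17.2% with equal weight per gene. Genes led by a known model, 70.4%, were 60.9% at a minimum of 10 reads per library, 77.2% at 50 and 75.2% without incomplete matches, and 70.1% without ribosomal protein genes, a setting added after seeing the data. The same leader in both libraries, 82.9%, was 75.9% and 90.2% at 10 and 50 reads. Recurring models, 20679, were 9006 at 2 reads in each library and 3277 at 5, and 15473 with library 2 thinned to the reads of library 1. Genes called for the leading share, 16, were 15 at a minimum of 10 reads per library and 23 at 50. They were 8 by the known share, which turned LSM4 to -14.8 points and RPL39 to -0.833. Genes called for level, 357, were 200 of 1443 tested at 50 reads in all, 317 with median-ratio scaling and 300 without mitochondrial and ribosomal protein genes, a setting added after seeing the data. Genes with alternative known models, 74, were 143 at 10% and 34 at 30%. The cause of these shifts was not tested beyond the settings' own construction. Leaving out a library gave 47.3% to 47.4% known reads, 17.7% to 18.5% incomplete, 17.7% to 17.8% new combinations, 6.13% to 6.81% with an unannotated site, 9.90% to 10.1% genomic, 68.7% to 69.6% of genes led by a known model and 21 to 24 of the 25 most abundant genes. Of 46 values of 18 named genes under these alternatives 39 kept their call and direction. Another 5 lost the call alone, and 2 turned in sign and lost it as well. The 39 are a weak check. Another read minimum leaves a gene's share or fold as it was and changes only the adjustment, and median-ratio scaling moves all folds by a common factor. Under the known share only ATP5PO and RPL7 kept their calls. Genes under a setting's minimum or left out by it had no value there and were not counted. No paired analysis was possible because only 1 line was used, so no groups share replicate numbers.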
